A study of Homo sapiens with 12 samples.

Results

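Immediate early genes are switched on within minutes of a growth factor, cytokine or stress signal, without new protein synthesis. This set was chosen by name, with earlier results of these data known. It held 10 such genes: ARC, EGR1, EGR2, EGR3, FOS, FOSB, FOSL1, JUN, JUNB and IER2. A probe set with a single gene symbol was found for 9 of the 10, and all 9 passed the filter on low values, among 20572 genes kept in the series. EGR2 was not analysed here. FOSB had a pair of probe sets and was read from the one with the higher mean over the 12 arrays. Each other member had 1.

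The samples were MDA-MB-231 cells, an established human line from a pleural effusion of a breast cancer, grown in high-glucose medium with serum. Total RNA was taken after 24 h and hybridised to 12 whole-transcript arrays, with 3 arrays in each of 4 groups. One group was untreated and served as control. Another received TNFα (40 ng/ml), another apigenin (40 µM), and the last received the 2 agents together in the same amounts. TNFα is an inflammatory cytokine that acts through NF-κB and MAP kinases, and apigenin is a plant flavone. Treatments were prepared in the salt solution HBSS, and the labels name no vehicle for the control cells. The samples are numbered 1 to 3 within each group. The labels do not tie them to separate cultures. The p-values therefore rest on a spread that may be technical.

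The log2 value of a probe set was the unit of measurement. These values ran from 0.536 to 12.5 over all probe sets, with array medians of 2.09 to 2.16 and array 75th percentiles of 3.31 to 3.56. Arrays of a group correlated at r = 0.983 to 0.991 across genes. Of 7 markers of the line, 5 (VIM, CD44, AXL, CAV1 and MSN) lay above the 75th percentile on all 12 arrays, while the epithelial keratins KRT8 and KRT18 did so on 5 arrays each. ESR1, PGR, CDH1 and FOXA1 lay below that percentile on all 12 arrays, and GATA3 above it. All 4 measured leukocyte markers and all 4 measured fibroblast and endothelial markers lay below it on every array, at 1.19 to 2.87.

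The members fall into 4 kinds. FOS, FOSB and FOSL1 pair through leucine zippers with JUN or JUNB to form the transcription factor AP-1. EGR1 and EGR3 are zinc-finger factors that bind GC-rich DNA. IER2 is a short-lived nuclear protein, and ARC is a cytoskeleton-associated protein best known for its role at neuronal synapses. MAP kinases, acting on serum response factor (SRF) and its ETS partners at CArG boxes, and kinases acting on CREB at cyclic AMP response elements, are the textbook routes to these genes. Their mRNAs are short-lived, so that the first peak has usually passed within hours of a stimulus. A 24 h time point records the level that remained at that time.

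Promoters matched by symbol in RefSeq's GRCh38.p14 table were searched for 6 measured members, and not for ARC, EGR3 or FOSL1. The motif counts below therefore do not cover ARC, the member with the largest difference, nor EGR3 and FOSL1. Each ran from 250 bases before the transcription start to 50 bases after it, 300 bases in all. Those of EGR1, FOS, JUNB and JUN are shown because they cover both factor families and include JUN, whose response to apigenin did not pass the test. They are written 5′ to 3′ on the strand of the gene, with matches to the motifs named in the next paragraph in capitals.
EGR1 promoter, GRCh38.p14 chr5:138465229-138465528, plus strand: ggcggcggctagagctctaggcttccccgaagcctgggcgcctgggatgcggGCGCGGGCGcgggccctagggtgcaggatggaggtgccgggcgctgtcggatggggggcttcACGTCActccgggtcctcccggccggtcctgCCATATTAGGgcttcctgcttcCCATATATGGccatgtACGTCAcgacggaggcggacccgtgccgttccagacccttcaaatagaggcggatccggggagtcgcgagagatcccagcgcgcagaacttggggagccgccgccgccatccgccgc
FOS promoter, GRCh38.p14 chr14:75278578-75278877, plus strand: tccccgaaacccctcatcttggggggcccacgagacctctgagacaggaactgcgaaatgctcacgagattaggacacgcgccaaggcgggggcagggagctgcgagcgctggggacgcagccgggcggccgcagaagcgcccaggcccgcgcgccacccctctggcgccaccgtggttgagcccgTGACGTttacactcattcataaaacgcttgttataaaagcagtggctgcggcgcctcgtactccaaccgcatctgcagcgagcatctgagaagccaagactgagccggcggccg
JUNB promoter, GRCh38.p14 chr19:12791236-12791535, plus strand: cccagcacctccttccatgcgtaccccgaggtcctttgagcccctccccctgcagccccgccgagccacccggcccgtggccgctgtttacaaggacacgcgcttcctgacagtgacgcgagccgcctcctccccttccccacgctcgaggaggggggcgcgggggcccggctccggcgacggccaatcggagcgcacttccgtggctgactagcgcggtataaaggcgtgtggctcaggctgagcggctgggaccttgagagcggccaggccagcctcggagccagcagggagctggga
JUN promoter, GRCh38.p14 chr1:58783998-58784297, minus strand: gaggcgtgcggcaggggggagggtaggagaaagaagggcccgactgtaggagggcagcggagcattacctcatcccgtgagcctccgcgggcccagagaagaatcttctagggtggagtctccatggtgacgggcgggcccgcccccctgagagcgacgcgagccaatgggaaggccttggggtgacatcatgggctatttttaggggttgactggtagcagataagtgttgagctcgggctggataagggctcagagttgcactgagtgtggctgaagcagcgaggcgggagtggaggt

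Both strands were searched for the CArG box, the full cyclic AMP response element TGACGTCA, the AP-1 site TGACTCA, the EGR site GCGNGGGCG, the ETS site CCGGAAGT and the GC box GGGGCGGGG. The shorter core site TGACGT of the cyclic AMP response element was added after the promoters had been read, and every full element contains it. EGR1 held 2 CArG boxes, beginning 105 and 83 bases before the start. This motif was found in 1.29% of the 35116 promoter windows of the table and in 1 of the 6 members. EGR1 also held an EGR site 198 bases before the start (9.43% of all windows), and core sites beginning 136 and 67 bases before it. FOS held a core site 64 bases before its start and FOSB one 60 bases before its start. So 3 of the 6 members had a core site, where 7.98% of all windows did. Because the site was chosen after these windows had been read, the comparison does not measure an enrichment. IER2 had 2 GC boxes, 149 and 11 bases before the start (15.7% of all windows). The full cyclic AMP response element (1.85% of all windows), the AP-1 site (4.95%) and the ETS site (4.14%) were found in none of the 6 windows, and JUNB and JUN had no match to any motif searched. No 2 matches overlapped. A match describes letters in the window and does not show that a factor bound there. Sites outside the window, or with other letters, were not searched for, so a missing match does not show that a gene lacks an element.

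With apigenin, 7 of the 9 measured members rose against control and none fell, where 4.55% of all genes rose and 11.4% changed in either direction (limma, Benjamini-Hochberg adjusted p below 0.05 over 20572 genes). The median difference of the 9 members was 0.89 on the log2 scale and that of all genes -0.02. The apigenin and control arrays did not overlap in these 7 members, as in 25.5% of all genes. With TNFα alone 1 of the 9 rose, JUNB, where 0.778% of all genes rose and 0.997% changed. The median difference of the 9 was 0.41 against 0.02 over all genes. The arrays did not overlap in 4 of the 9, against 13.6% of all genes. Of these 4 members, 3 were higher with TNFα and EGR3 was lower. With apigenin in the medium, with or without TNFα, ARC, EGR1, JUNB, IER2 and FOSB read higher on all 6 arrays than on any of the 6 arrays without it. This full separation upward was found in 4.18% of all genes.

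**Figure D1:**
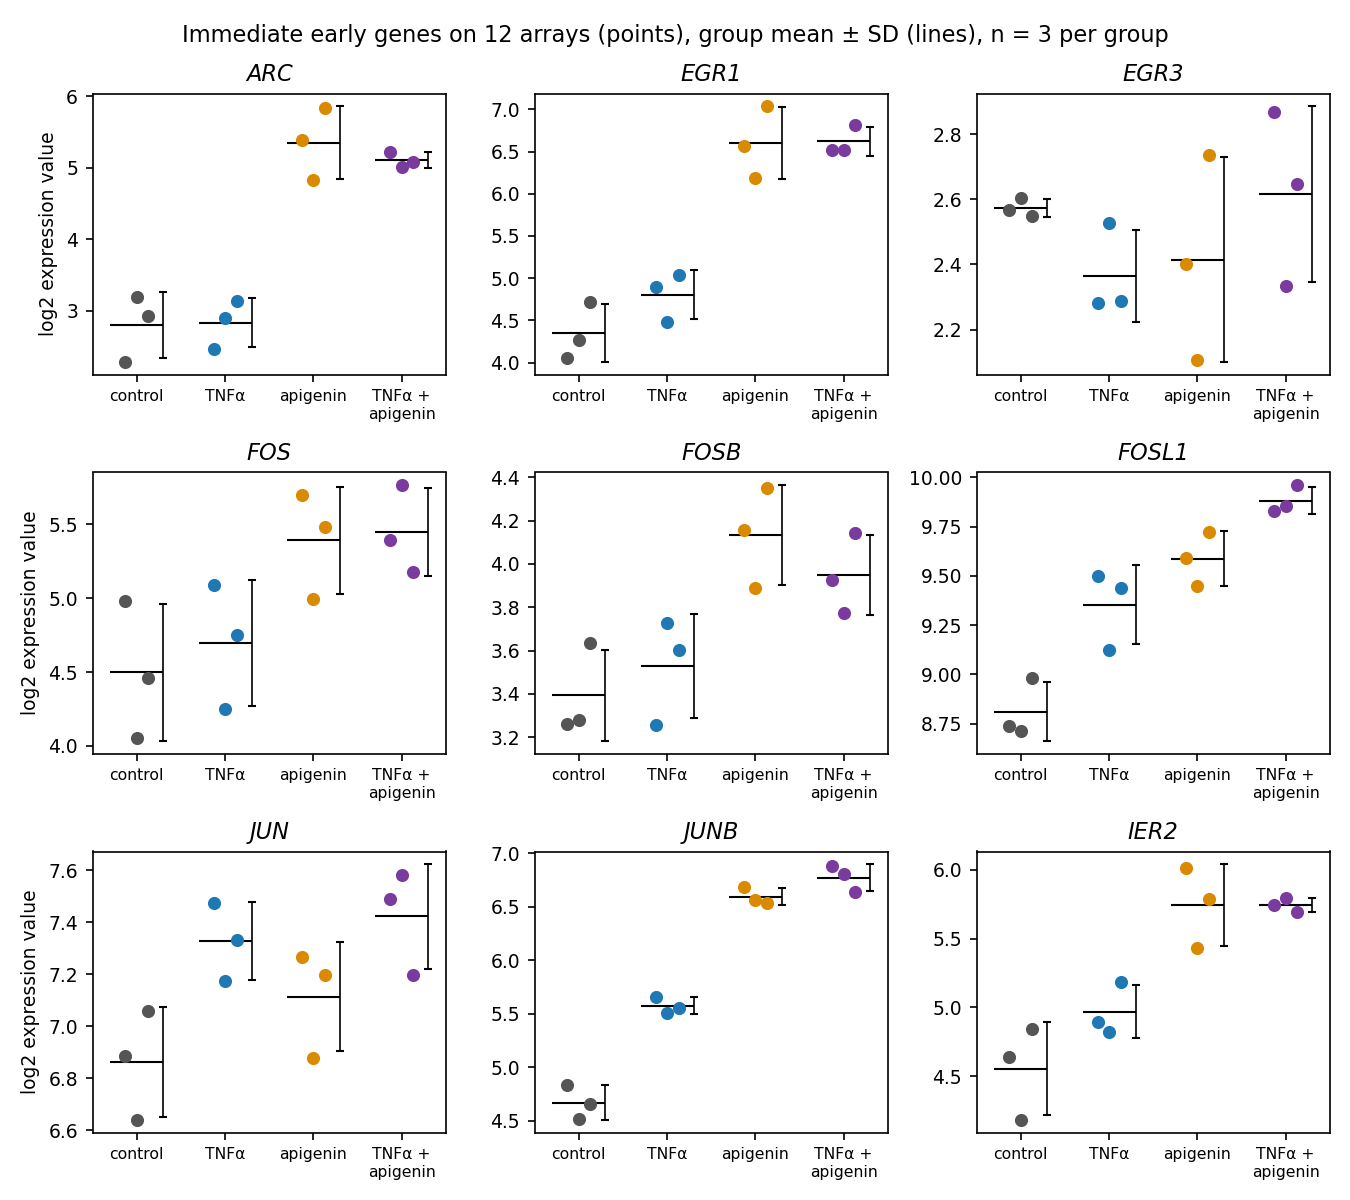
Log2 expression values of the 9 measured immediate early genes on each of the 12 arrays (points), by treatment group on the horizontal axis, with group mean and SD (black lines, n = 3), and a separate vertical scale for each gene. ARC, EGR1, FOSB, JUNB and IER2 are higher on every array with apigenin than on every array without it, FOSL1 is lowest on the control arrays and highest on the arrays with both, and EGR3 shows no separation by apigenin.

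ARC had the largest difference in the set. It read 2.28, 3.19 and 2.93 on control arrays 1 to 3, 2.46, 2.90 and 3.13 with TNFα, 5.38, 4.83 and 5.84 with apigenin, and 5.23, 5.01 and 5.08 with both. The 6 arrays without apigenin overlapped one another and lay below the 75th percentile of their arrays, while the 6 with it lay above. From 2.80 ± 0.47 (mean log2 value ± SD, n = 3) in control, ARC rose by 2.55 with apigenin (SE 0.26, 5.85-fold, limma adjusted p = 4.7e-05). In cells given TNFα, apigenin raised it by 2.27 (SE 0.26, adjusted p = 1.6e-04). TNFα alone gave a difference of 0.03, with a 95% interval of -0.53 to 0.60 (adjusted p = 0.988).

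EGR1, the best known of the EGR factors, also separated by apigenin on its own scale. Its values were 4.05, 4.27 and 4.72 in control, 4.89, 4.48 and 5.04 with TNFα, 6.57, 6.19 and 7.04 with apigenin, and 6.52, 6.52 and 6.82 with both. The pairs with the same apigenin status overlapped, and the lowest array with apigenin stood at 6.19 against 5.04 for the highest without. Apigenin raised EGR1 by 2.25 (SE 0.22, 4.75-fold, limma adjusted p = 3.4e-05), and by 1.82 in TNFα-treated cells (SE 0.22, adjusted p = 2.3e-04). TNFα alone gave 0.46, which did not pass (95% interval -0.02 to 0.93, adjusted p = 0.463). With apigenin present the TNFα difference was 0.02 (-0.46 to 0.50).

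EGR3, another zinc-finger member of the family, gave no called difference in any of the 6 comparisons. It read 2.57, 2.60 and 2.55 in control and 2.28, 2.53 and 2.29 with TNFα. With apigenin it read 2.40, 2.11 and 2.74, and with both 2.87, 2.33 and 2.65. Its values stayed below the 75th percentile of every array. The difference with apigenin was -0.16 (SE 0.17, 95% interval -0.52 to 0.20, limma adjusted p = 0.658). That interval holds no increase of 1 on the log2 scale at this probe set. The probe set read 2.11 to 2.87 over the 12 arrays, near the array medians of 2.09 to 2.16. How far a change of the mRNA would show at such values was not tested. TNFα gave -0.21 (SE 0.17, adjusted p = 0.722), although the TNFα arrays did not overlap the control arrays.

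JUNB, a JUN-family partner in AP-1, had the smallest SE of the 9 members. The control arrays read 4.84, 4.51 and 4.65, the TNFα arrays 5.66, 5.50 and 5.56, the apigenin arrays 6.68, 6.56 and 6.54, and the arrays with both 6.88, 6.81 and 6.64. Control, TNFα and apigenin formed 3 steps with no overlap, and only the apigenin and combined groups overlapped. JUNB rose by 0.91 with TNFα (SE 0.12, 1.87-fold, limma adjusted p = 0.00157). This call was lost without the 4 arrays numbered 3, at an adjusted p of 0.0501. It rose by 1.93 with apigenin (SE 0.12, 3.80-fold, adjusted p = 1.1e-06) and by 1.20 when apigenin was added to TNFα (SE 0.12, adjusted p = 5.7e-05).

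In the presence of apigenin the TNFα difference of JUNB was 0.18 (95% interval -0.08 to 0.44, limma adjusted p = 0.820). The interaction, which is the TNFα difference with apigenin minus that without it, was -0.73 for JUNB (SE 0.17, 95% interval -1.09 to -0.36). Its unadjusted p was 7.9e-04 and its adjusted p over all genes was 0.470, so it did not pass. It was the lowest unadjusted interaction p of the set and the single one below 0.05.

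JUN, the other JUN-family gene of the set, read 6.89, 6.64 and 7.06 in control and 7.48, 7.17 and 7.33 with TNFα. It read 7.27, 6.88 and 7.20 with apigenin, and 7.49, 7.58 and 7.20 with both. The group means ran in the order both, TNFα, apigenin and control, and each neighbouring pair in that order overlapped. TNFα against control was 0.47 (SE 0.15, limma adjusted p = 0.235), with no overlap between these groups, and apigenin against control was 0.25 (SE 0.15, 95% interval -0.08 to 0.58, adjusted p = 0.383). Against control, JUN rose with both treatments together by 0.56 (SE 0.15, adjusted p = 0.0293). That call was lost without control replicate 1 or 2, or combined replicate 1 or 2, and when the fit held only the groups compared, with an adjusted p of up to 0.115. Whether JUN and JUNB respond differently was not tested, since different probe sets share no scale.

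FOS, the founding member of its family, varied more within groups. Its values were 4.98, 4.05 and 4.46 in control, 5.09, 4.25 and 4.75 with TNFα, 5.70, 5.00 and 5.48 with apigenin, and 5.40, 5.77 and 5.18 with both. Control array 1 at 4.98 lay just below apigenin array 2 at 5.00, and TNFα array 1 lay above that apigenin array. FOS rose by 0.89 with apigenin (SE 0.26, 1.86-fold, limma adjusted p = 0.0433) and by 0.95 with both against control (SE 0.26, adjusted p = 0.0302). The second call was lost in 6 of 21 other settings, among them those without control replicate 2 or 3 or combined replicate 1 or 2, with an adjusted p of up to 0.123. Apigenin added to TNFα gave 0.75 (SE 0.26, adjusted p = 0.0974), which did not pass although the groups did not overlap. The apigenin call was lost in 9 of 21 other settings, with an adjusted p of up to 0.238. Over all 21 settings the difference ran from 0.67 to 1.14. The 9 settings that lost the apigenin call included leaving out control replicate 2 or 3, TNFα replicate 3, apigenin replicate 1 or 3, or combined replicate 1.

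FOSB read 3.26, 3.28 and 3.64 in control, 3.26, 3.73 and 3.60 with TNFα, 4.16, 3.89 and 4.35 with apigenin, and 3.93, 3.77 and 4.14 with both. Control and TNFα overlapped throughout, and the lowest array with apigenin, at 3.77, was only just above the highest without, at 3.73. FOSB rose by 0.74 with apigenin (SE 0.17, 1.67-fold, limma adjusted p = 0.0104) and differed by 0.42 between both and TNFα (SE 0.17, adjusted p = 0.148). Its second probe set did not follow. That probe set read 2.76 to 3.52 over the 12 arrays and gave 0.15 for apigenin against control (SE 0.16, adjusted p = 0.681 over 21895 probe sets). Averaging the 2 probe sets reduced the difference to 0.44, which was still called (limma adjusted p = 0.0393 in that fit). Both against control gave 0.55 (SE 0.17, adjusted p = 0.0439), a call lost in 11 of 21 other settings, the mean of both probe sets among them. The arrays whose removal ended that call were control replicates 1 and 2, TNFα replicate 3, apigenin replicate 1 and combined replicates 1 and 3.

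FOSL1, also called FRA-1, is the FOS-family member linked to invasive breast cancer cells. It read 8.74, 8.71 and 8.98 in control and 9.50, 9.13 and 9.44 with TNFα. It read 9.59, 9.45 and 9.72 with apigenin, and 9.83, 9.85 and 9.96 with both. Control lay below every other array and the combined group above every other array, while TNFα and apigenin overlapped. FOSL1 rose by 0.78 with apigenin (SE 0.13, 1.71-fold, limma adjusted p = 0.00179) and by 1.07 with both against control (SE 0.13, 2.10-fold, adjusted p = 1.6e-04). TNFα alone gave 0.54 (SE 0.13, 95% interval 0.26 to 0.83, adjusted p = 0.0807), which did not pass. That difference passed in 3 of 21 other settings, among them the one without TNFα replicate 2 (adjusted p = 0.0310). Adding TNFα to apigenin gave 0.29 (95% interval 0.01 to 0.58, adjusted p = 0.677). Apigenin added to TNFα raised it by 0.53 (SE 0.13, adjusted p = 0.0214), a call lost without TNFα replicate 2 or without any one of the 3 combined arrays.

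IER2 read 4.64, 4.18 and 4.84 in control, 4.90, 4.82 and 5.18 with TNFα, 6.01, 5.43 and 5.79 with apigenin, and 5.74, 5.80 and 5.69 with both. Control and TNFα overlapped, apigenin and both overlapped, and no array with apigenin came below 5.43. IER2 rose by 1.19 with apigenin (SE 0.18, 2.28-fold, limma adjusted p = 8.3e-04) and by 0.78 when apigenin was added to TNFα (SE 0.18, adjusted p = 0.0145). The second call was lost without TNFα replicate 1 or combined replicate 1 or 2. TNFα alone gave 0.41 (SE 0.18, adjusted p = 0.397), and TNFα on top of apigenin gave -0.00 (95% interval -0.39 to 0.39).

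**Figure D2:**
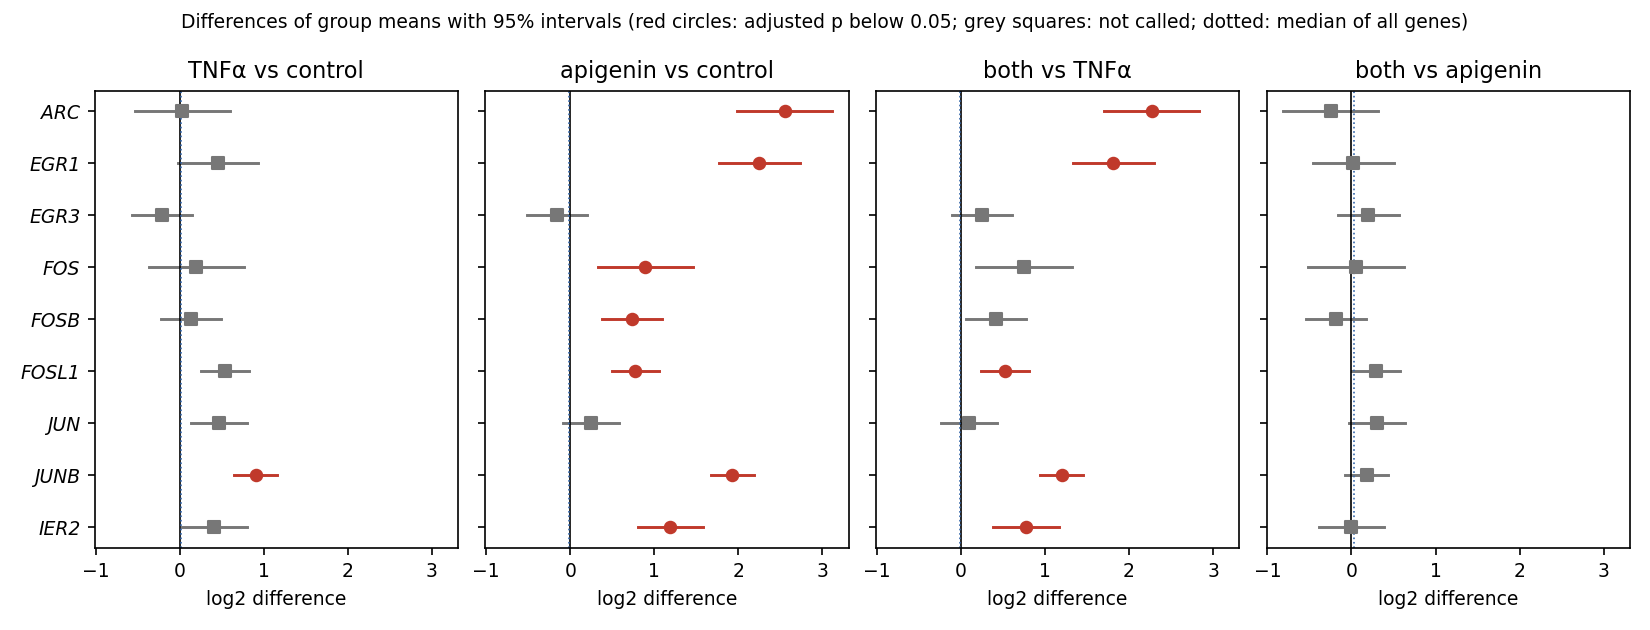
Differences of group mean log2 values for the 9 measured members in 4 comparisons (horizontal axis), with 95% intervals as bars, red circles for adjusted p below 0.05, grey squares otherwise, and a dotted line at the median of all genes. The comparison of apigenin with control has 7 red circles, TNFα with control 1, both with TNFα 5 and both with apigenin none.

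In cells given TNFα, apigenin raised 5 of the 9 members (ARC, EGR1, JUNB, IER2 and FOSL1) and lowered none, where 4.21% of all genes rose and 10.1% changed. The median of the members was 0.75 against -0.01 over all genes. The groups did not overlap in 7 of the 9, against 26.2% of all genes. The count of 5 was 3 without combined replicate 1 or without combined replicate 2. Both treatments against control raised 8 of 9, all but EGR3, where 7.15% of all genes rose and 12.5% changed, with a median of 1.07 against 0.00. The groups did not overlap in those 8, against 27.6% of all genes. The count of 8 was 5 without control replicate 2 or without combined replicate 1. These comparisons share arrays with the comparison of apigenin and control, so their counts do not repeat one another independently.

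Adding TNFα to apigenin changed none of the 9 members in the limma fit, where 0.209% of all genes changed. At an unadjusted p below 0.05 there was 1, FOSL1, which was also the 1 member whose groups did not overlap (14.1% of all genes). For the interaction, 0 of 9 members passed, where 0.0535% of all genes did, and JUNB was the 1 member with an unadjusted p below 0.05. Differences of response were estimated loosely: the 95% interval of the interaction was -1.08 to 0.52 for ARC, -1.11 to 0.24 for EGR1 and -0.95 to 0.66 for FOS. The interaction was negative for 8 of the 9 members and positive for EGR3 (0.41). All 9 values rest on the same 12 arrays.

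One array ran low over the set within its group. Apigenin replicate 2 was the lowest of the 3 apigenin arrays in 8 of the 9 members, JUNB being the exception, and the highest in none. TNFα replicate 2 was the lowest of its group in 6 and control replicate 2 in 5. Combined replicate 2 was the lowest of its group in 3 and the highest in 3, and combined replicate 3 was the lowest in 4. The matching shares over all genes were not computed. Leaving out apigenin replicate 2 left 7 members called between apigenin and control. The part of array differences in the members' spread was not tested.

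Leaving out non-coding and provisional symbols, the closest patterns to ARC, EGR1 and FOS were measured by the root mean square difference of values centred on each gene's mean over the 12 arrays. For ARC the nearest was the zinc exporter SLC30A1, at 0.25 log2 units, followed by KICS2 (0.34) and the stress gene GADD45B (0.34), where the SD of ARC itself over the 12 arrays was 1.30. For EGR1 the nearest were the ubiquitin ligase MYLIP (0.26), SLFN5 (0.30) and KICS2 (0.31), with an SD of 1.11 for EGR1. For FOS they were COASY (0.23), an enzyme of coenzyme A synthesis, the replication licensing factor CDT1 (0.23) and RRP7A (0.24), against an SD of 0.55. Within the set, EGR1 was the member nearest to ARC (0.37) and IER2 the nearest to FOS (0.27).

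Other immediate early genes were gathered in a list of 40, also with earlier results of these data known. Of these 38 were measured, of which 18 rose with apigenin, 1 fell and 19 did not pass, with a median difference of 0.49. Over all genes 4.55% rose, 6.83% fell and the median was -0.02. The largest were RASD1, a Ras-related G protein (2.48, SE 0.22, limma adjusted p = 1.8e-05), GADD45B (2.19, SE 0.10) and SIK1, a kinase that restrains CREB coactivators (1.95, SE 0.18, adjusted p = 2.0e-05). The gene that fell was KLF2 (-0.76, SE 0.20, adjusted p = 0.0252). With TNFα alone 4 of the 38 rose and none fell, with a median of 0.15, where 0.778% of all genes rose, 0.219% fell and the median was 0.02. That count was 2 without control replicate 1 or without TNFα replicate 1. The 4 included PTGS2, the inducible cyclooxygenase (0.97, SE 0.18, adjusted p = 0.0203), and the EGF-receptor ligand HBEGF (0.93, SE 0.13, adjusted p = 0.00204).

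PTGS2 stood at 2.95 ± 0.25 in control, 3.92 ± 0.28 with TNFα, 3.51 ± 0.29 with apigenin and 3.72 ± 0.16 with both (log2, n = 3). RASD1 stood at 3.50 ± 0.35, 3.40 ± 0.46, 5.98 ± 0.25 and 5.75 ± 0.12 in the same order. Like ARC, RASD1 gave no called difference with TNFα (-0.10, SE 0.22, limma adjusted p = 0.927).

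**Figure D3:**
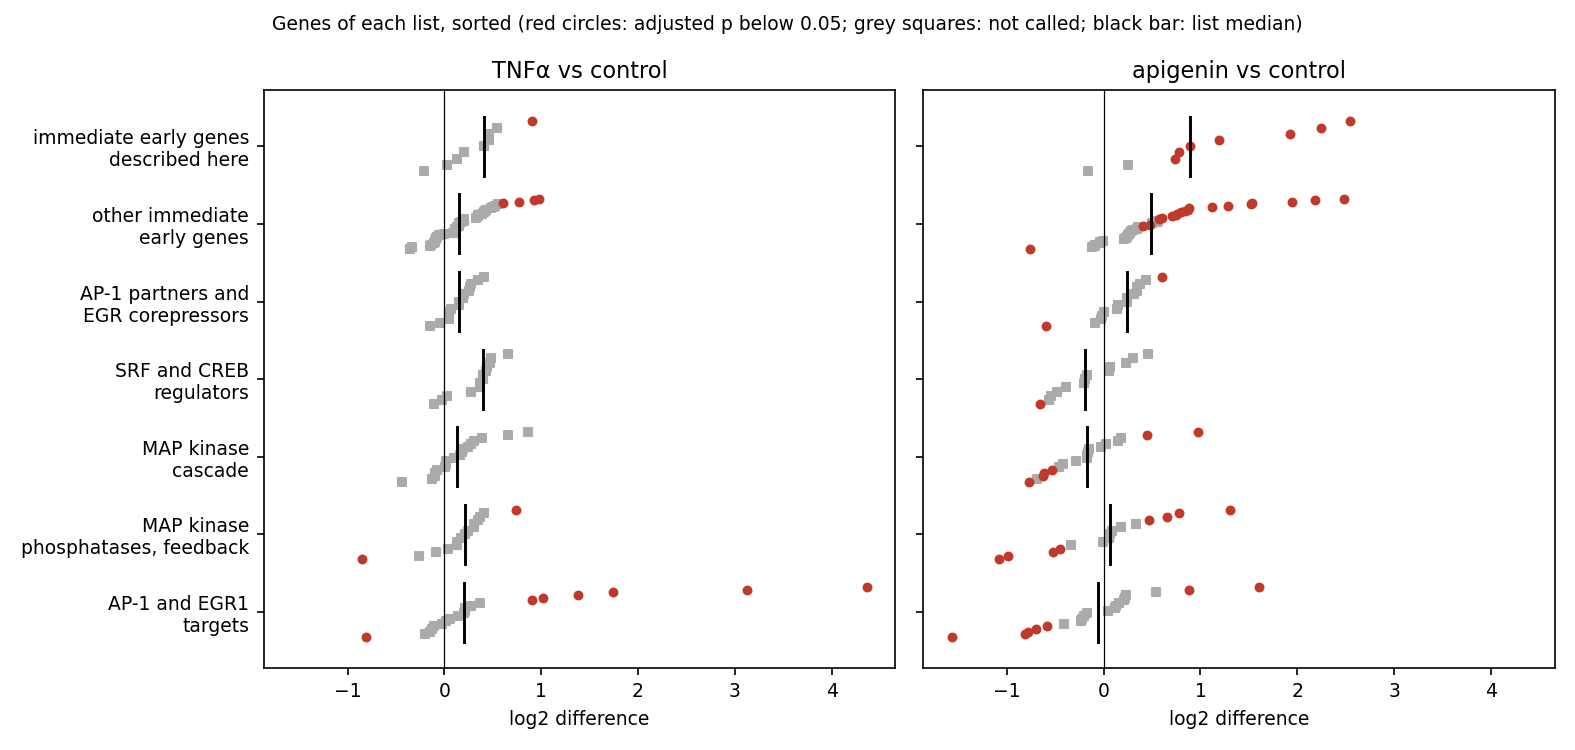
Log2 differences of the measured genes of 7 lists (rows; points sorted within a row) for TNFα against control (left) and apigenin against control (right), with red circles for adjusted p below 0.05, grey squares otherwise, and black bars at list medians. With apigenin the upper 2 rows, which hold immediate early genes, have medians of 0.89 and 0.49, and the row of SRF and CREB regulators has 1 call, which is lower, with a median of -0.20.

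The next 3 lists hold genes that act on or with the members. For each, the share of all genes that rose with apigenin was 4.55% and that fell 6.83%, with a median of -0.02. Of 15 measured AP-1 dimer partners and EGR corepressors, 1 rose with apigenin, ATF3 (0.60, SE 0.16, limma adjusted p = 0.0226), and 1 fell, ATF2 (-0.59, SE 0.14, adjusted p = 0.0129). The list's median was 0.24. ATF3, FOSL2, JUND and MAFF are also among the 38 immediate early genes above, so the medians of these lists are not independent. The list had 1 call in place of 2 without any 1 of the control arrays or without apigenin replicate 3, and 0 without apigenin replicate 1. Of 13 SRF and CREB regulators 1 fell, the ETS factor ELK3 (-0.65, SE 0.19, adjusted p = 0.0391), and none rose, with a median of -0.20. The list had no call without control replicate 1, TNFα replicate 1, apigenin replicate 1 or 2, or combined replicate 2, and 2 calls without apigenin replicate 3. Of 18 measured MAP kinase cascade genes 2 rose and 4 fell, with a median of -0.17. The p38 activator MAP2K3 rose by 0.97 (SE 0.16, adjusted p = 0.00115), while RPS6KA5, a kinase of CREB and histone H3 (-0.77, SE 0.19, adjusted p = 0.0172), and the Raf kinase ARAF (-0.63, SE 0.16, adjusted p = 0.0179) fell. Without apigenin replicate 1 that list had 3 calls in place of 6. With TNFα alone none of these 3 lists had a call in the limma fit, where 0.997% of all genes changed. With so small a share, a count of none says little about lists of this size. The TNFα medians were 0.16 for the AP-1 partner list, 0.40 for SRF and CREB regulators and 0.13 for the MAP kinase cascade. That of all genes was 0.02.

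Phosphatases and feedback inhibitors of MAP kinases had calls on both sides with apigenin, where 4 of 15 rose, 4 fell and the median was 0.06, against 4.55% and 6.83% of all genes. These 8 calls became 5 without control replicate 1 or without apigenin replicate 3. DUSP1, a nuclear MAP kinase phosphatase that is itself an immediate early gene, rose from 6.01 ± 0.23 to 7.31 ± 0.13 (log2 difference 1.30, SE 0.15, limma adjusted p = 9.6e-05). The Ras pathway inhibitors SPRY1 (-1.08, SE 0.13, adjusted p = 1.9e-04) and SPRED1 (-0.99, SE 0.20, adjusted p = 0.00493) fell. TNFα alone lowered SPRY1 by 0.85 (adjusted p = 0.00617) and raised DUSP10 by 0.74 (adjusted p = 0.0115). Over all genes 0.219% fell and 0.778% rose with TNFα. The list had 1 TNFα call in place of 2 without control replicate 2, TNFα replicate 1 or TNFα replicate 3.

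Of 20 measured genes often named as targets of AP-1 or EGR1, 2 rose with apigenin and 5 fell, with a median of -0.06, against 4.55% and 6.83% of all genes and a median of -0.02. SNAI1, a repressor of epithelial genes, rose by 1.60 (SE 0.29, limma adjusted p = 0.00273) and CXCL8 by 0.88 (SE 0.19, adjusted p = 0.00949). Urokinase (PLAU) went from 8.20 ± 0.04 in control to 6.63 ± 0.04 with apigenin (log2 difference -1.57, SE 0.11, adjusted p = 2.8e-06). With TNFα alone 6 of the 20 rose and 1 fell, against 0.778% and 0.219% of all genes, led by CXCL8 (4.36, SE 0.19) and TNFAIP3 (3.12, SE 0.15), both also NF-κB targets. In cells given TNFα, apigenin lowered 10 of the 20 and raised 2, with a median of -0.46, where 5.92% of all genes fell, 4.21% rose and the median was -0.01.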

How the data were processed

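The deposited file gives 1 log2 value for each probe set and array. The authors used Affymetrix Expression Console to make them, according to the submitters' processing notes, and its version, summary algorithm and genome build are unknown here. Of 53617 probe sets, 23871 had exactly 1 gene symbol in the platform table, updated by gene identifier. Probe sets at or above the 25th percentile of an array on at least 3 arrays were retained, which left 20572 genes, each read from the probe set with the highest mean over the 12 arrays. The 4 group means were fitted with limma 3.58.1 in R 4.3.3, and calls used Benjamini-Hochberg adjusted p below 0.05. The fit was checked on simulated data, and the recovery required of that check was lowered after its first run, in which the interaction only equalled the first limit. A fold is the antilog of a difference of mean log2 values. With 3 arrays in a group, their number limits the precision.

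The members, the 6 other gene lists and the markers were chosen with earlier results of these data known. All members are named. From each list the text names up to 3 called genes with the largest change with apigenin, up to 2 with TNFα, and any called for the interaction. KLF2 was named after its value was seen, and FOSL2, JUND and MAFF only as genes shared between lists. Promoters were searched with Python 3.11.15. Alternatives were other normalisations, filters, probe set rules and variance models, a fit on only the groups compared, a replicate block, and fits without each array.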

Additional observations from a re-analysis of the deposited data

Results flagged for a closer look

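None of the 9 measured members had a called interaction, and in none did the TNFα response run in opposite directions on every array without and with apigenin. Among the listed AP-1 and EGR1 targets, the response to TNFα differed between cells without and with apigenin for 2 genes, by the interaction term of the limma fit. For CXCL8 the interaction was -2.09 (SE 0.28, adjusted p = 0.0218): TNFα gave 4.36 without apigenin and 2.27 with it. For MMP9, a gelatinase, it was -1.39 (SE 0.20, adjusted p = 0.0342), with TNFα differences of 1.38 and -0.01. Within the set, JUNB had an interaction of -0.73 that did not pass (adjusted p = 0.470). The list that holds CXCL8 and MMP9 had 0 or 1 interaction call in place of 2 whenever any 1 of the 12 arrays was left out.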

How the results depend on the processing

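Over 1125 recomputed member differences no called difference reversed, 40 lost the call and 4 gained it. Between apigenin and control 6 or 7 members were called in every setting, and ARC, EGR1, JUNB, IER2, FOSL1 and FOSB were called in all 21. The 0 members called for TNFα added to apigenin and for the interaction stayed 0 in every setting run. With TNFα alone the count of 1 became 2 with trended and robust variance, 2 with the replicate block (in both, FOSL1 also passed, with an adjusted p of 0.0139 and 0.0193), and 0 without the 4 arrays numbered 3. Leaving out 1 array gave 1 to 2. For apigenin added to TNFα, leaving out 1 array gave 3 to 5 members, and for both against control 5 to 8. The causes of these changes were not tested.

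Same-numbered arrays of different groups had a median correlation of deviations of r = 0.286, above 0.1 in 13 of 18 pairs (lowest 0.018). For differently numbered arrays the median was -0.073, with r above 0.1 in 1 of 36 pairs. Of 36 best correlations, 34 were with the own number. The labels state no pairing and the main fit used none. Whether the numbers mark shared batches was not tested. The replicate block gave 6 members for apigenin added to TNFα, where FOS then passed (adjusted p = 0.0310). Over all genes it moved the calls with TNFα from 205 to 632, for apigenin added to TNFα from 2085 to 3315, and for TNFα added to apigenin from 43 to 100.

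All-gene counts also moved beyond 1.5 times elsewhere. With only the groups compared, TNFα gave 73 and TNFα added to apigenin 21. Without the arrays numbered 3, they gave 85 and 15, apigenin against control 1505 in place of 2342, and apigenin added to TNFα 1288. The 11 interaction calls became 5 with median centring, 3 with trended and robust variance, and 2 without the arrays numbered 3. Leaving out 1 array gave 98 (without control replicate 1) to 314 (without TNFα replicate 2) with TNFα and 2 to 6 for the interaction. It gave 1534 (without apigenin replicate 1) to 2393 for apigenin against control, 1191 (without combined replicate 1) to 2202 for apigenin added to TNFα, and 15 (without apigenin replicate 1) to 47 for TNFα added to apigenin. Among list counts, 663 of 750 stayed within 1.5 times. EGR3 lay below the 75th percentile on all 12 arrays and ARC on 6, and what signal over background limits was not tested.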
